A study of Arabidopsis thaliana with 42 samples.

Results

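The 8 genes described here encode the enzymes that turn chorismate into tryptophan in Arabidopsis thaliana: ASA1 (AT5G05730), ASB1 (AT1G25220), PAT1 (AT5G17990), PAI1 (AT1G07780), IGPS (AT2G04400), TSA1 (AT3G54640), TSB1 (AT5G54810) and TSB2 (AT4G27070). They were chosen by pathway membership, with no measured value in the rule, and are 8 of the 24843 loci counted. Leaves of 7 genotypes were compared that had received the bacterial pathogen Pseudomonas syringae pv. maculicola ES4326, written Pma below, or a mock solution. All lines were in the Col-0 background and 30 days old. Leaves 6 to 8 received either Pma at an OD600 of 0.0002 or 5 mM magnesium sulfate, and 2 leaves formed a sample 24 h later. Beside the wild type stood the single mutants cbp60a, wrky70 and sid2, the double mutants cml46 cml47 and chp60g sard1 (a spelling of the labels for what is taken to be cbp60g sard1), and the triple mutant cbp60a cbp60g sard1. CBP60A, CBP60G and SARD1 encode proteins of the calmodulin-binding CBP60 family, CML46 and CML47 calmodulin-like proteins, WRKY70 a transcription factor, and SID2 is the isochorismate synthase ICS1 that makes most pathogen-induced salicylic acid. Each of 3 experiments held 1 library of all 14 groups, so n = 3 stands for 3 experiments, taken to be the replicate numbers of the library titles. The edgeR p-values measure the spread left among libraries once group and experiment are taken out, estimated over all 14 groups together. The sources used here give neither the alleles nor the number of lines per genotype.

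Tryptophan is made in the plastid from chorismate, the end product of the shikimate pathway. Anthranilate synthase, with an alpha subunit that binds chorismate and a beta subunit that supplies ammonia from glutamine, commits chorismate to the branch and is held back by tryptophan itself. A phosphoribosyl group is then added, rearranged and closed into indole-3-glycerol phosphate, from which tryptophan synthase releases indole and joins it to serine. In leaves of Arabidopsis the product also feeds the phytoalexin camalexin, the indole glucosinolates and auxin, and genes of the branch are known to respond to pathogens.

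The genes lie apart on all 5 chromosomes. In TAIR10.1, ASA1 is at chr5:1719533-1722933 on the minus strand, ASB1 at chr1:8836835-8839609 on the minus strand, PAT1 at chr5:5957080-5960201 on the plus strand and PAI1 at chr1:2409865-2412777 on the minus strand. IGPS is at chr2:1531148-1533737 on the plus strand, TSA1 at chr3:20223034-20225523 on the minus strand, TSB1 at chr5:22264594-22266902 on the minus strand and TSB2 at chr4:13586268-13588897 on the plus strand. Parts of ASA1, ASB1, PAT1 and IGPS overlap genes of the opposite strand, and the strand setting of the counting is not given in the sources used here. The overlapping genes counted were at 0 to 0.829 CPM (counts scaled to the same library size) beside ASA1, 0.707 to 7.21 CPM beside ASB1 and 0 to 1.05 CPM beside PAT1. AT2G04410, which overlaps IGPS, was at 107 to 239 CPM in mock and 130.4 to 245 CPM in Pma libraries.

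Upstream sequence is shown for ASA1 and ASA2, genes for the same subunit whose tags moved in opposite directions after Pma. The 300 bases before the annotated start come from RefSeq (TAIR10.1) and read 5′ to 3′ on the strand of the gene: chr5:1722934-1723233 (minus) for ASA1 and chr2:12693434-12693733 (plus) for ASA2. Capitals mark TTGAC, the core of the element that WRKY factors bind, and GAAATTT, an element bound by CBP60g and SARD1, on either strand.
ASA1: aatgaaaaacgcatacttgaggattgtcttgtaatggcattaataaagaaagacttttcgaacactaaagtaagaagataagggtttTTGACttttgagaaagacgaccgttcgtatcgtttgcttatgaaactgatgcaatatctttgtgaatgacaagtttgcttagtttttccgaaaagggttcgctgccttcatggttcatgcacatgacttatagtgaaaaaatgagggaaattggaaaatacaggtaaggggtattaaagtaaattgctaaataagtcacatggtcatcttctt
ASA2: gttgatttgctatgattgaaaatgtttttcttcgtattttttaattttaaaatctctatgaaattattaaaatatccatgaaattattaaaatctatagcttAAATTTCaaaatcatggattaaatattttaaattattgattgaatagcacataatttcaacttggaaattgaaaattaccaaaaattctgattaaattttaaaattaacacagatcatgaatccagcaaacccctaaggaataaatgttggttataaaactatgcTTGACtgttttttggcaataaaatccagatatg
TTGAC stood 213 bases before the start of ASA1 and 33 before that of ASA2, whose window also held GAAATTT on the reverse strand 198 bases before the start. Over the windows of 7 members, that of TSB1 being not analysed here, TTGAC was found on either strand in 6, all but TSB2, against 50.4% of 27443 Arabidopsis promoter windows of the same length. ASB1 held it 3 times, 117, 62 and 56 bases before the start. TGACG, the core bound by TGA factors, was found in PAI1 and TSB2, 2 of 7, against 21.3% of windows, and GAAATTT in PAT1 alone, 1 of 7, against 14.9%. In TTGACG the first and the second motif overlap, as they did once in PAI1. A match is a description of these letters and was not tested for binding.

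Libraries held 919335 to 2691069 counts (median 1588053.5). Values are CPM of 3' tags scaled to the effective library size after TMM, a tag marking the 3' end of a transcript, so levels are compared between samples and not between genes. In bulk leaf tissue, fewer cells of a type and less RNA per cell cannot be told apart. Tags of the mutated genes were lower than in wild type after Pma for CBP60G and SARD1 in both lines that carry those mutations, WRKY70 in wrky70 and ICS1 in sid2 (log2 differences of -2.72 to -8.06), for CBP60A in the triple mutant (-1.05), and for CML46 in cml46 cml47 (3 counts against 1651). CBP60A in cbp60a (101 counts against 217, adjusted p = 0.192) and CML47 in cml46 cml47 (1199 against 3261, adjusted p = 0.173) did not pass the edgeR test, and a 3' tag outside an altered part checks nothing.

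Pma raised the tags of 7 of the 8 genes, and it did so in all 7 genotypes. A change was called at a Benjamini-Hochberg adjusted p under 0.05 in edgeR's quasi-likelihood test over 15161 genes, and in wild type 32.3% of these genes were called higher and 34% lower. The wild type median of the 7 tested members was a log2 fold change of 4.02, beside -0.02 over all genes tested, which the TMM scaling largely holds near 0. PAI1 failed the filter on low counts and was not tested.

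ASA1, the alpha subunit of anthranilate synthase and the rate-limiting step of the branch, was at 35.2, 19.7 and 39.5 CPM in wild type mock and at 945, 686 and 969 CPM in wild type Pma. Every Pma library lay far above every mock library. The log2 fold change was 4.81 ± 0.34 (SE, n = 3), a 28.1-fold rise (adjusted p = 1.16e-12). ASB1, the beta subunit that delivers the amino group, was at 11.1, 5.85 and 31.03 CPM in mock and 554, 419 and 447 CPM in Pma. The mock libraries varied most here, with experiment 3 at the top, but stayed well below the Pma libraries. Its log2 fold change of 5.03 ± 0.43 (32.6-fold, adjusted p = 2.55e-11) was the largest of the 7 in wild type, and without the mock library of experiment 3 it was 5.84.

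PAT1, the anthranilate phosphoribosyltransferase that starts the middle of the pathway, was at 54.2, 30.7 and 47.95 CPM in mock and 444, 409.9 and 424 CPM in Pma. The Pma libraries were close to each other and clear of the mock libraries, with a log2 fold change of 3.30 ± 0.29 (adjusted p = 5.16e-11). PAI1, a phosphoribosylanthranilate isomerase, was near the detection limit throughout. It was at 1.96, 0.731 and 0.940 CPM in wild type mock and 0.537, 0.818 and 4.49 CPM in wild type Pma, and over all genotypes no library held more than 8 of its tags, with 40 in the 21 mock and 55 in the 21 Pma libraries. The groups overlapped and no change could be tested at this depth. IGPS, the indole-3-glycerol phosphate synthase, was at 33.3, 19.7 and 25.4 CPM in mock and 580.4, 383 and 456 CPM in Pma. Its groups did not overlap, and the log2 fold change was 4.18 ± 0.31 (18.1-fold, adjusted p = 1.96e-12).

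TSA1, the alpha subunit of tryptophan synthase that frees indole, was at 56.1, 46.1 and 52.7 CPM in mock and 1299, 594 and 736 CPM in Pma. Experiment 1 gave the highest Pma value, and all of them were clear of mock (log2 fold change 4.02 ± 0.30, adjusted p = 2.74e-12). TSB1, a beta subunit that joins indole to serine, was at 125, 40.96 and 93.1 CPM in mock and 528, 267 and 385 CPM in Pma. It had the smallest change of the 7, with a log2 fold change of 2.27 ± 0.23 (4.81-fold, adjusted p = 7.89e-10), and in both treatments experiment 2 was lowest. TSB2, the second gene of that subunit, was at 7.83, 3.66 and 2.82 CPM in mock and 43.5, 40.9 and 45.4 CPM in Pma, again without overlap (log2 fold change 3.09 ± 0.35, adjusted p = 5.38e-09, and 3.88 without the mock library of experiment 1).

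**Figure D1:**
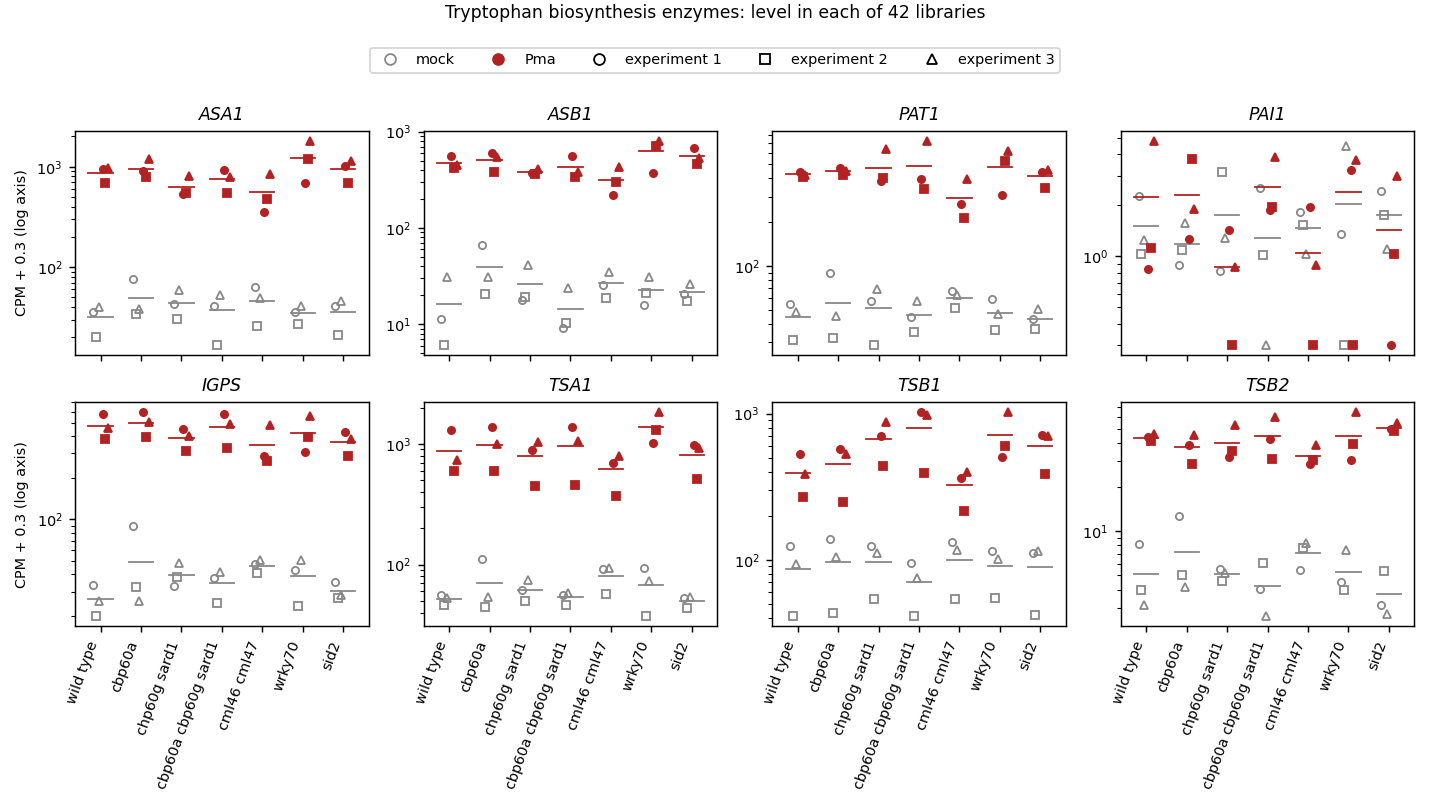
Level of each of the 8 genes in all 42 libraries (CPM with a small constant added, log axis), by genotype, with mock in grey, Pma in red, the experiment as the marker shape and the group mean as a line. Every Pma library is above every mock library for the 7 tested genes, while for PAI1 the groups overlap.

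In the mutants the same 7 genes rose, 49 of 49 comparisons in all, with log2 fold changes of 1.75 to 5.18 and adjusted p of 5.27e-13 to 9.36e-07, the direction being the same in 3 of 3 experiments each time. Without cbp60a mock of experiment 1 the values in that line moved by more than 1.5-fold for ASB1 (3.66 to 4.54), PAT1 (3.05 to 3.74), IGPS (3.34 to 4.13) and TSB2 (2.26 to 3.24), as did TSB2 in the triple mutant without its mock of experiment 2 (3.35 to 3.94). Of all genes tested, 31.1% were called higher in sid2, 29.7% in cbp60a, 29.3% in wrky70, 27.8% in chp60g sard1, 27.8% in cbp60a cbp60g sard1 and 26.9% in cml46 cml47. The median log2 fold change of the 7 members was 3.82 in sid2, 3.75 in the triple mutant, 3.48 in wrky70, 3.34 in cbp60a, 3.27 in chp60g sard1 and 2.89 in cml46 cml47. That of all genes tested stayed between -0.04 and 0.00, where the TMM scaling largely holds it. For each of the 7 genes the smallest response was that of cml46 cml47, from 1.75 ± 0.23 for TSB1 to 3.62 ± 0.32 for ASA1. All 7 come from the same cml46 cml47 libraries, so they are not 7 separate observations. The share of all genes with their smallest response in that line was not counted. The largest response was in wild type for ASB1 and IGPS, in wrky70 for ASA1 (5.18) and TSA1 (4.47), in the triple mutant for PAT1 (3.40) and TSB1 (3.47), and in sid2 for TSB2 (3.82).

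Ordered by mean level, the 7 Pma groups stood above the 7 mock groups for every tested gene, and the ranges of neighbouring groups were separate at 1 place only, between the lowest Pma group and the highest mock group. All other neighbours in the order overlapped. The lowest Pma group was cml46 cml47 for each of the 7 genes, with ASA1 at 357, 474 and 855 CPM and ASB1 at 219.7, 298 and 433 CPM. The 7 genes were read in the same libraries, and the share of all genes lowest in that group was not counted. The highest Pma group was wrky70 for ASA1 (688, 1201 and 1798 CPM), ASB1 (376, 703 and 797 CPM) and TSA1 (1019.7, 1299 and 1827 CPM), where experiment 1 was the low library each time. The triple mutant led for PAT1 and TSB1, cbp60a for IGPS and sid2 for TSB2. Among mock libraries, cbp60a of experiment 1 was the highest of 21 for each of the 7 genes, for example 75.4 CPM for ASA1 and 67.1 CPM for ASB1.

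Markers of leaf cell types moved with the treatment. The summed level of 5 mesophyll genes was 37282 to 61958 CPM in mock and 1652 to 23115 CPM in Pma libraries, that of 5 epidermis genes 864 to 2234 and 13.9 to 258 CPM, that of 5 guard cell genes 35.04 to 86.1 and 61.3 to 157 CPM, and that of 5 phloem genes 395 to 683 and 511 to 1083 CPM. Root markers were at or near 0, at most 0.829 CPM over 4 genes. The part of these shifts in the response of the tryptophan genes was not tested.

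**Figure D2:**
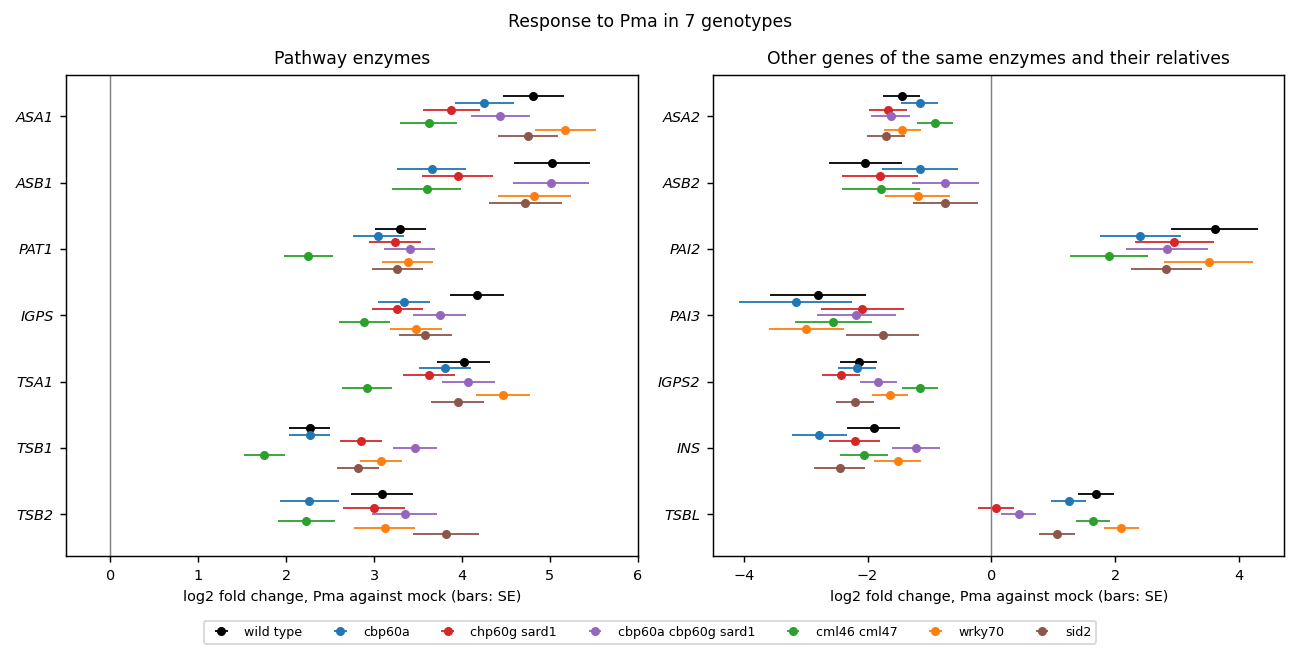
Log2 fold change of Pma against mock with its SE (n = 3 per group) in the 7 genotypes, for the 7 tested pathway genes on the left and their 7 relatives on the right. All points on the left are at 1.75 or more, and on the right ASA2, ASB2, PAI3, IGPS2 and INS lie below 0.

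Arabidopsis has further genes for most of these steps, and in wild type 5 of 7 such relatives fell after Pma while 2 rose, with a median log2 fold change of -1.90. The shares of all genes tested were 34% lower and 32.3% higher. PAI2 was at most at 4.05 CPM in any mock library, and PAI3 at most at 2.95 CPM in any Pma library. Each passed the filter on low counts only through the other treatment, so the direction of these 2 was largely set by the filter. ASA2, the other alpha subunit of anthranilate synthase, was at 22.2, 13.2 and 31.03 CPM in mock and 13.97, 4.09 and 6.17 CPM in Pma. Its groups overlapped in range but fell in each experiment (log2 fold change -1.45 ± 0.30, adjusted p = 8.78e-05, and -2.055 without experiment 1). ASB2, the other beta subunit, went from 11.1 ± 3.93 to 2.92 ± 3.19 CPM (SD, n = 3), a log2 fold change of -2.03 (adjusted p = 0.00306), a call that ended without experiment 3 (adjusted p = 0.0808). It was -3.27 without the Pma library of experiment 2. IGPS2, the relative of IGPS, was at 67.2, 52.7 and 79.9 CPM in mock and 14.5, 15.5 and 14.6 CPM in Pma, so that its groups were well apart (-2.15 ± 0.30, adjusted p = 1.84e-07). INS, an indole synthase related to TSA1, went from 9.74 ± 2.94 to 2.56 ± 0.823 CPM (log2 fold change -1.90, adjusted p = 0.000239). PAI3 fell on few tags, 2 against 14 in the 3 libraries (ratio 0.116, 95% counting interval 0.0128 to 0.507).

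PAI2 and TSBL rose. PAI2, the isomerase gene most like PAI1, had 61 tags in wild type Pma against 4 in mock (log2 fold change 3.61, adjusted p = 2.98e-05, and 4.35 without mock of experiment 2). TSBL, a tryptophan synthase beta relative of the second type, went from 20.2, 19.7 and 16.9 CPM to 66.1, 75.3 and 44.3 CPM, with no overlap (log2 fold change 1.69, adjusted p = 4.72e-06). In the mutants, 1 or 2 of the 7 relatives were higher and 4 or 5 lower after Pma, with the same limit of the filter for PAI2 and PAI3. Of all genes tested, 33.5% were called lower in cbp60a, 31.5% in sid2, 31.4% in wrky70, 30.5% in cbp60a cbp60g sard1, 30.2% in cml46 cml47 and 29.6% in chp60g sard1. PAI2 and IGPS2 overlap opposite-strand genes that were themselves lower in Pma libraries, and INS overlaps one that was higher, and the part of these in the values was not tested.

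In 4 of the pairs nearly all tags after Pma belonged to 1 gene. ASA2 held 22.8 to 46.5% of the ASA1 and ASA2 tags over the 21 mock libraries (median 34.9%) and 0.283 to 3.26% over the 21 Pma libraries (median 0.838%). The same holds for ASB2, with medians of 31.1% and 0.749%, for IGPS2, with 58.4% and 3.10%, and for INS, with 18.2% and 0.291% of its pair with TSA1. In these 4 pairs the ranges of mock and Pma libraries did not overlap, whatever the genotype. TSB2 differed, at 2.08 to 12.3% of TSB1 and TSB2 tags in mock (median 5.91%) and 3.998 to 13.3% in Pma (median 7.26%). Of the PAI1 and PAI2 tags, PAI2 held a median of 53.6% in the 20 mock libraries with any and 92.0% in Pma, on 0 to 8 tags of PAI1 per library. Over the last 300 bases of the transcripts, where 3' tags lie, the longest run that members and relatives share was 8 to 26 bases. Over whole transcripts it reached 254 bases for PAI1 and PAI2, 212 for ASB1 and ASB2 and 104 for PAI1 and PAI3. These are runs of the first-listed transcript of each gene. Whether tags of such stretches were assigned to the right gene was not tested.

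**Figure D3:**
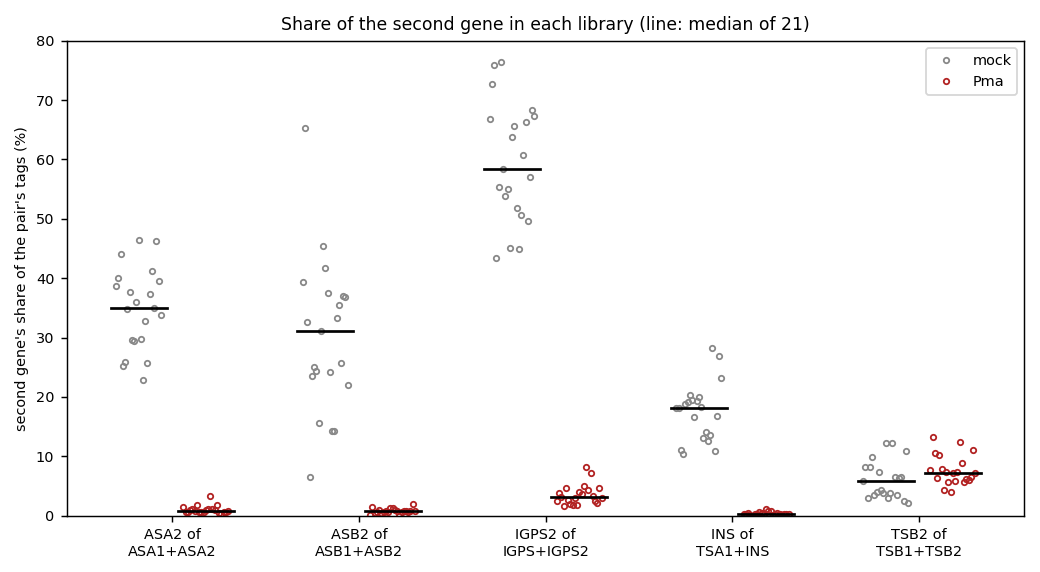
Share of the second gene in the tags of each pair (percent), with 21 mock libraries in grey, 21 Pma libraries in red and the median as a line. The shares of ASA2, ASB2, IGPS2 and INS drop to medians of 0.291 to 3.10% in Pma, while that of TSB2 spans 3.998 to 13.3%.

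In mock leaves none of the 42 comparisons of a member between a mutant and wild type was called. The share of all genes called in either direction was 5.24% in cml46 cml47, 0.462% in chp60g sard1, 0.185% in cbp60a, 0.0594% in wrky70, 0.0132% in sid2 and 0% in the triple mutant. The log2 differences ran from -0.50 (TSB2 in sid2) to 1.45 (ASB1 in cbp60a), and 34 of 42 were above 0. All 42 are set against the same 3 wild type mock libraries, so they are not 42 separate observations. The lowest adjusted p was that of IGPS in cml46 cml47, at 46.9, 40.8 and 50.1 CPM against 33.3, 19.7 and 25.4 CPM in wild type (0.83 ± 0.29, adjusted p = 0.0872). Its 3 libraries were all above those of wild type, as were those of TSA1 in that line (0.59, adjusted p = 0.238). For TSA1 the lowest was 56.3 CPM, beside a highest of 56.1 CPM in wild type. The share of all genes separated in this way was not counted. ASB1 in cbp60a was at 67.1, 20.4 and 30.7 CPM, above wild type of the same experiment in experiments 1 and 2 and level with it in experiment 3 (1.45 ± 0.40, adjusted p = 0.107). The call of IGPS in cml46 cml47 was made without experiment 1 (1.01, adjusted p = 0.0349), and those of ASB1 (1.73, adjusted p = 0.0312) and IGPS (1.24, adjusted p = 0.0168) in cbp60a without cbp60a mock of experiment 3. Over all fits without 1 library or experiment, IGPS in cml46 cml47 ran from 0.72 to 1.01 (edgeR adjusted p up to 0.520). ASB1 in cbp60a ran from 0.56 to 2.33. IGPS in cbp60a mock was at 88.9, 32.1 and 25.6 CPM, so experiment 1 stood far above the others. In cml46 cml47 mock leaves the summed mesophyll markers were at 40063 to 41943 CPM against 55900 to 61958 CPM in wild type, and their part in these values was not tested.

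After Pma, 3 of 42 comparisons were called, and all 3 were TSB1. The share of all genes called was 14.5% in sid2, 13.1% in chp60g sard1, 10.1% for the triple mutant, 3.31% in wrky70, 0.125% in cml46 cml47 and 0% in cbp60a. TSB1 in Pma leaves was at 528, 267 and 385 CPM in wild type, 701, 441 and 876 CPM in chp60g sard1, 1019, 392 and 982 CPM in the triple mutant, and 508, 596 and 1021 CPM in wrky70. Each of the 3 groups overlapped wild type in range. All 3 are set against the same 3 wild type libraries, so the calls are not 3 separate observations. Both lines with cbp60g and sard1 mutations were above wild type in 3 of 3 experiments, and wrky70 in 2 of 3, experiment 1 being the exception. The log2 difference was 0.77 ± 0.22 in chp60g sard1 (adjusted p = 0.0175), 0.95 ± 0.22 in the triple mutant (adjusted p = 0.00500) and 0.92 ± 0.22 in wrky70 (adjusted p = 0.0160). In sid2, at 712, 384 and 697 CPM, TSB1 was higher by 0.59 ± 0.22 (95% interval 0.14 to 1.05), which missed the threshold (adjusted p = 0.0670) except without experiment 1 (0.69, adjusted p = 0.0422). In cbp60a (568, 248 and 529 CPM) and cml46 cml47 (362, 215 and 397 CPM) the differences were 0.14 and -0.28. Leaf markers differed between these groups too. The summed mesophyll genes were at 7426 to 17541 CPM in chp60g sard1, 6423 to 23115 CPM in the triple mutant, 4934 to 13449 CPM in sid2 and 1779 to 5823 CPM in wrky70, against 3186 to 3655 CPM in wild type Pma leaves. The epidermis genes were at 124 to 193, 16.2 to 258, 35.01 to 169.7 and 16.4 to 27.5 CPM in the same order, against 31.4 to 56.4 CPM, and the guard cell genes at 63.9 to 80.3, 61.3 to 97.03, 118.6 to 157 and 87.9 to 149.99 CPM, against 107 to 149 CPM. The part of these in the TSB1 values was not tested.

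These calls rest on few libraries. Without the experiment as a block, adjusted p was 0.386, 0.251 and 0.481 in the 3 lines in the same order. The chp60g sard1 call ended without experiment 2 or 3 (adjusted p = 0.124 and 0.468), without chp60g sard1 Pma of experiment 2 or 3 (0.0666 and 0.0963) and without wild type Pma of experiment 3 (0.127). That of the triple mutant ended without experiment 3 (0.361) or wild type Pma of experiment 3 (0.0578). That of wrky70 ended without experiment 2 or 3 (0.336 and 0.378), wrky70 Pma of experiment 2 or 3 (0.139 and 0.0557) or wild type Pma of experiment 3 (0.118).

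**Figure D4:**
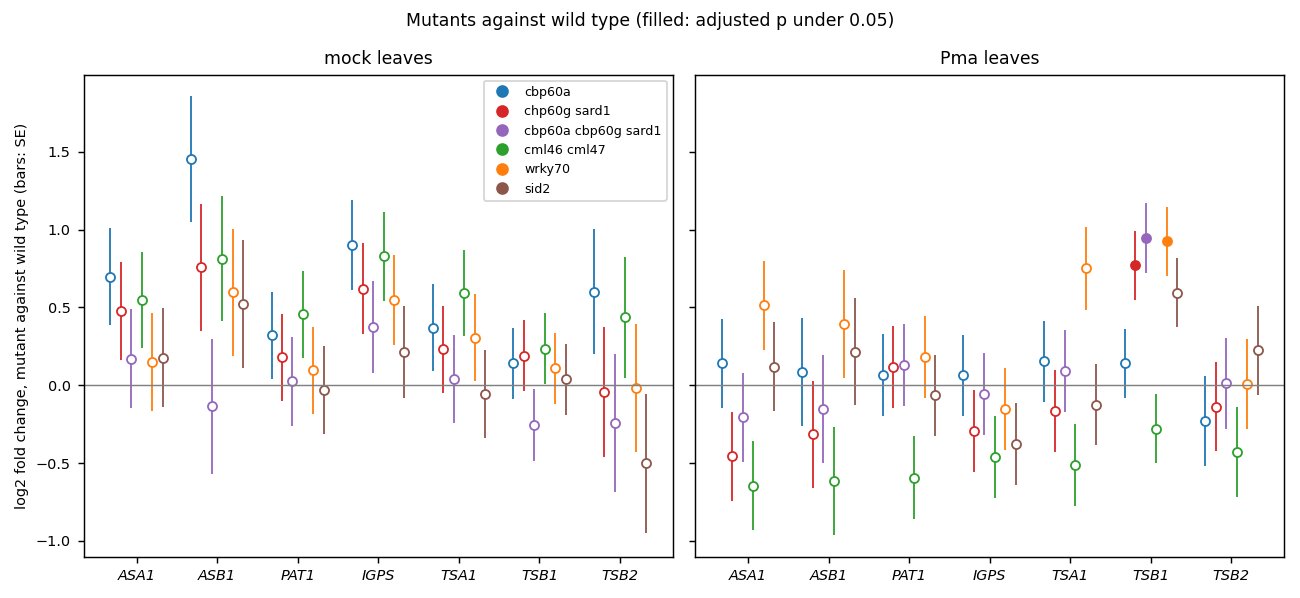
Log2 difference of each mutant from wild type with its SE (n = 3 per group) for the 7 tested genes, in mock leaves on the left and Pma leaves on the right. Filled points passed the edgeR test, which are the 3 of TSB1 in Pma leaves, in chp60g sard1, cbp60a cbp60g sard1 and wrky70.

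The other 39 Pma comparisons were not called and ran from -0.64 to 0.75. In cml46 cml47 all 7 differences were below 0, from -0.28 (TSB1) to -0.64 (ASA1). They rest on the same cml46 cml47 and wild type libraries, so they are not 7 separate observations. PAT1 was there at 266, 214 and 396 CPM against 444, 409.9 and 424 CPM in wild type, and TSB2 at 28.6, 30.3 and 38.4 CPM against 43.5, 40.9 and 45.4 CPM. Both stayed below every wild type library without passing the test (adjusted p = 0.394 and 0.620). ASB1 in chp60g sard1 (372, 367 and 405 CPM) also lay below all wild type libraries, by 0.32 on the log2 scale. TSB2 in sid2 (49.3, 47.9 and 54.6 CPM) lay above them, by 0.22, and neither was called. How many of all genes separate in this way was not counted, and no difference is read from these separations. TSA1 in wrky70, at 1019.7, 1299 and 1827 CPM against 1299, 594 and 736 CPM, differed by 0.75 ± 0.27 (adjusted p = 0.110). It was called without experiment 1 (1.22, adjusted p = 0.00983) or without wrky70 Pma of experiment 1 (1.06, adjusted p = 0.0173). Over all fits without 1 library or experiment it ran from 0.45 to 1.22, with edgeR adjusted p up to 0.625.

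The difference of the Pma response from that of wild type was called for 1 of 42, TSB1 in the triple mutant. Of all genes, 6.81% were called in this comparison in chp60g sard1, 3.88% for the triple mutant, 1.73% in sid2, 0.574% in cml46 cml47, 0.112% in wrky70 and 0% in cbp60a. TSB1 rose from 94.5, 41.03 and 74.9 CPM in mock to 1019, 392 and 982 CPM in Pma in the triple mutant, a log2 fold change of 3.47 ± 0.25, which is 1.20 ± 0.32 above that of wild type (adjusted p = 0.0315). The call ended without the block (0.380), without experiment 2 or 3 (0.105 and 0.490), without wild type mock of experiment 1 or 3 (0.125 and 0.0526), wild type Pma of experiment 1 or 3 (0.0546 and 0.105), the triple mutant's mock of experiment 1, 2 or 3 (0.0760, 0.0526 and 0.0882) or its Pma of experiment 3 (0.118). In cml46 cml47 all 7 responses were smaller than in wild type, by -0.51 to -1.43 on the log2 scale, none of them called (lowest adjusted p = 0.0970, IGPS, -1.29). These 7 responses share the same libraries, so they are not 7 separate observations. Without cml46 cml47 Pma of experiment 3 that of IGPS was called (-1.53, adjusted p = 0.0391), and without wrky70 Pma of experiment 1 that of TSB1 in wrky70 (1.144, adjusted p = 0.0416). In chp60g sard1 the responses of ASA1, ASB1 and IGPS differed by -0.93, -1.07 and -0.91, with adjusted p of 0.183, 0.232 and 0.158.

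Between the triple mutant and chp60g sard1, which differ by the cbp60a mutation, none of the 7 genes was called in mock or in Pma leaves. Of all genes, 0% were called in mock and 0.0066% in Pma. The log2 differences were -0.89 to -0.15 in mock and 0.01 to 0.25 in Pma, with every adjusted p at 1.

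TSB2 was not called in these lines, and the share of TSB2 in the TSB1 and TSB2 tags, which no scaling of libraries alters, was compared after the values had been seen. In Pma leaves it was 7.61, 13.3 and 10.6% in wild type (10.5 ± 2.84%, SD, n = 3) and 4.32, 7.34 and 5.71% in chp60g sard1. The mean was 5.79 ± 1.51% in chp60g sard1, 5.67 ± 1.63% in the triple mutant and 5.89 ± 0.265% in wrky70. All libraries of these 3 lines lay below all those of wild type. The two-sided exact permutation p was 0.1 in each, the smallest that 3 against 3 allows, or 0.2 adjusted over the 6 mutants. The share was 8.13 ± 2.00% in cbp60a, 9.49 ± 2.59% in cml46 cml47 and 8.28 ± 2.47% in sid2, where the groups overlapped wild type (exact p = 0.3, 0.7 and 0.4). Compared within experiments, the share was lower than in wild type in 3 of 3 experiments in each of the 6 mutants, by -0.296 to -7.18 percentage points. The two-sided exact p was 0.25 in each, the smallest that 3 pairs allow. All 6 mutants are set against the same 3 wild type libraries, so they are not 6 separate observations. The share is made from the same TSB1 tags, so it adds no separate evidence to the TSB1 calls.

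Upstream of chorismate, the shikimate pathway rose with the branch in wild type but by less, with a median log2 fold change of 1.26. Here 8 of 10 genes were called higher and 0 lower, beside 32.3% and 34% of all genes tested. DHS1 and DHS3, which encode the first enzyme, changed by 2.27 ± 0.27 (66.9 ± 26.3 to 320.0 ± 106 CPM, SD, n = 3) and 1.91 ± 0.20. CS, the chorismate synthase, changed by 1.51 ± 0.19, from 37.2, 35.8 and 36.7 CPM to 129.5, 104 and 81.3 CPM, and the gene for dehydroquinate dehydratase with shikimate dehydrogenase (AT3G06350) by 1.303. Adjusted p was at most 2.11e-07 for these 4. In the mutants 6 to 8 of the 10 genes were higher and 0 lower.

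The competing branches were mixed. Toward phenylalanine and tyrosine, 5 of 12 genes rose and 1 fell, with a median of 0.33. In wild type 32.3% of all genes tested were called higher and 34% lower, and the 5 that rose are not set apart from that share. The arogenate dehydratases ADT4 (33.8 ± 6.41 to 384 ± 61.4 CPM) and ADT5 rose by 3.50 ± 0.30 and 3.48 ± 0.50 on the log2 scale, and the arogenate dehydrogenase TYRA1 by 2.46 ± 0.42 (1.86 without experiment 3). The chorismate mutase CM1 rose by 1.02 ± 0.29 (adjusted p = 0.00310), a call that ended without experiment 2 (0.0910). The 1 that fell, named after its value was seen, was ADT3. Toward salicylic acid, ICS1 rose by 4.86 ± 0.48 (adjusted p = 2.99e-10), and ICS2 did not pass.

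Serine, the other substrate of tryptophan synthase, has a phosphorylated pathway in plastids, of which 5 of 6 genes were tested, 3 rose and 1 fell (median 4.58). Over all genes tested in wild type the shares were 32.3% and 34%, from which counts this small are not set apart. The phosphoglycerate dehydrogenases PGDH1 and PGDH2 rose by 4.58 ± 0.47 and 5.55 ± 0.49, and the phosphoserine aminotransferase PSAT1, from 13.1, 2.19 and 7.52 CPM to 476, 267 and 293 CPM, by 5.56 ± 0.37. PGDH3 fell from 44.4, 53.4 and 50.8 CPM to 1.61, 0.818 and 0 CPM, with 4 tags left in 3 libraries. In each mutant 3 of the 5 tested were higher and 1 or 2 lower. PSAT2 failed the filter.

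Of the genes that use tryptophan, 5 of 9 rose and 2 fell in wild type, with a median of 1.74. The shares over all genes tested were 32.3% higher and 34% lower, and these counts are not set apart from them. CYP79B2, which opens the route to camalexin and indole glucosinolates, went from 31.3, 18.3 and 14.1 CPM to 705, 351 and 653 CPM, a log2 fold change of 4.67 ± 0.40 (adjusted p = 3.03e-11). The camalexin genes CYP71A13 and PAD3 went from 8 to 10288 and from 4 to 3450 tags (log2 fold changes 9.91 ± 0.98 and 9.29 ± 0.86, or 10.69 without mock of experiment 2 and 9.905 without mock of experiment 3), and CYP71A12 from 0 to 547 tags. The 2 that fell, named after their values were seen, were the auxin synthesis genes TAA1, with 8 tags in mock and 1 in Pma, and TAR2, with 49 and 0. Of 4 regulators, MYB51 (log2 fold change 3.77), WRKY33 (3.75) and MYB122 (137 tags against 1, ratio 112, 95% counting interval 19.7 to 4439) rose. MYB34, a MYB factor known to act on ASA1 and on CYP79B2, fell from 18.3, 36.6 and 19.7 CPM to 0, 10.6 and 3.93 CPM (-2.77 ± 0.79, adjusted p = 0.00274, with -2.03 without experiment 1 and -3.74 without experiment 2).

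**Figure D5:**
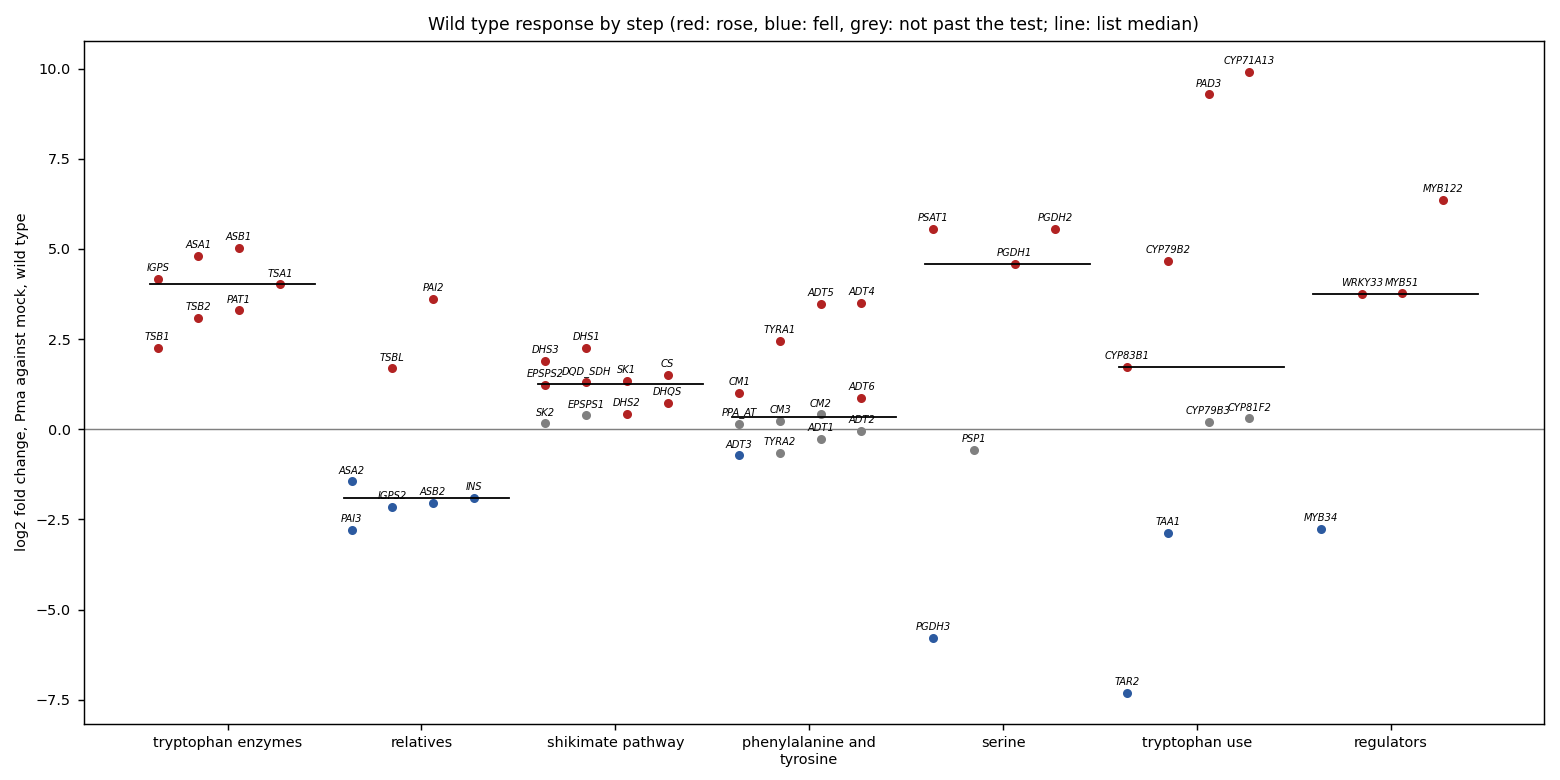
Wild type log2 fold change of Pma against mock for the tested genes of the tryptophan branch and its relatives, with the list median as a line. Also drawn are the shikimate and serine pathways, the phenylalanine and tyrosine branch, the genes that use tryptophan and 4 regulators. The competing genes ICS1 and ICS2 are not drawn. CYP71A12, with no tag in mock, is not drawn but counts in its list's median of 1.74, and the tryptophan enzymes lie around a median of 4.02.

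After Pma some of these neighbouring genes differed from wild type where most tryptophan enzymes were not called. TSBL was at 30.5, 21.7 and 15.6 CPM in chp60g sard1, below all wild type libraries (66.1, 75.3 and 44.3 CPM), with a log2 difference of -1.44 ± 0.28 (adjusted p = 0.000625). That call ended without experiment 2 (0.0716). TSBL was lower also in the triple mutant (-0.91, adjusted p = 0.0268) and sid2 (-0.89, adjusted p = 0.0243), where single libraries decide the call. In the triple mutant it ended without experiment 2 or 3 (0.306 and 0.166), wild type Pma of experiment 1 or 2 (0.0920 and 0.130) or the mutant's Pma of experiment 2 or 3 (0.0613 and 0.283). In sid2 it ended without experiment 1 or 2 (0.0773 and 0.442), wild type Pma of experiment 1 or 2 (0.0821 and 0.116) or sid2 Pma of experiment 1 or 2 (0.0583 and 0.139). CYP79B3, the second gene beside CYP79B2, was at 27.9, 58.1 and 40.9 CPM in wild type, 216, 312 and 789.7 CPM in chp60g sard1 and 163, 268 and 1014 CPM in the triple mutant. Both lines were above all wild type libraries, with experiment 3 highest, and differed by 3.29 ± 0.48 and 3.39 ± 0.49 (adjusted p = 2.21e-05 and 2.35e-05), or by 2.59 and 2.31 without experiment 3. In sid2 it was at 95.02, 122 and 182 CPM, also above all wild type libraries (1.62 ± 0.46, adjusted p = 0.0159). The sid2 call ended without experiment 2 or 3 (0.119 and 0.0576), wild type Pma of experiment 1 or 3 (0.0956 and 0.0837) or sid2 Pma of experiment 3 (0.0588). These are the 3 lines in which all Pma libraries had more of the mesophyll markers than any wild type Pma library, and the part of that in the values of CYP79B3 and MYB34 was not tested.

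MYB34 was at 0, 10.6 and 3.93 CPM in wild type Pma leaves, 11.9, 57.6 and 176 CPM in chp60g sard1 and 1.05, 72.2 and 204 CPM in the triple mutant. In sid2 it was at 7.86, 53.1 and 54.6 CPM. Experiment 1 was the low library in all 3 lines, and of these chp60g sard1 was clear of wild type. The log2 differences of 4.09 ± 0.78 and 4.12 ± 0.78 (adjusted p = 0.000459 and 0.000606) missed the threshold without experiment 3 (2.87 and 2.54, adjusted p = 0.0527 and 0.144). In sid2 the difference was 3.06 ± 0.78 (adjusted p = 0.00693), a call that ended without the block (0.0673), experiment 2 or 3 (0.0971 and 0.0573) or wild type Pma of experiment 3 (0.0553). ICS1 was lower in chp60g sard1 and the triple mutant by -3.28 and -3.62. By list, 2 of 10 shikimate genes were higher in each of chp60g sard1 and the triple mutant, and 1 in sid2, and of the 12 phenylalanine and tyrosine genes 2, 2 and 1. Of all genes tested, 8.88, 7.01 and 8.89% were called higher in these lines, and counts this small are not set apart from those shares.

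The genes whose levels were most like those of the branch were taken from 13375 genes with a mean of at least 5 CPM. Libraries form separate mock and Pma clusters, so Pearson r is given over the 21 Pma libraries alone, which share 3 experiments and 7 genotypes. Nearest to ASA1 were CYTC-1 (r = 0.920), AT4G33540 (0.918), AT1G10585 (0.898), AT1G80440 (0.893) and AT1G65820 (0.892), and the other tested members had r of 0.536 to 0.919 with it. Nearest to the mean of the 7 tested members were MAPR3 (0.979), APR1 (0.922), PRS3 (0.916), AT4G25030 (0.897) and CYP79B2 (0.879), while the members themselves had 0.788 to 0.895 with their mean. Each member is part of that mean, which raises its r, and the outside genes are not. APR1 reduces sulfate for cysteine, and a PRS enzyme makes phosphoribosyl pyrophosphate, which the PAT1 step uses.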

How the data were processed

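The deposited table holds raw counts of 3' tags from Smart-3SEQ libraries for each locus, per the submitters' processing notes. The same notes name bcl2fastq 2.17.1.14 for base calls, the trimming of a 5-base molecular tag with GGG (8 bases in all), and STAR 2.4.2a for alignment to TAIR10. How tags were counted (tool, annotation release, strand, removal of copies) is not given in the sources used here.

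From the counts, edgeR 4.0.16 in R 4.3.3 (glmQLFit with legacy = FALSE, glmQLFTest, TMM, filterByExpr with min.count 10 and min.total.count 15) was fitted once to 42 libraries. The model had 16 coefficients, for 14 groups and a block of 3 experiments, leaving 26 residual degrees of freedom. It gave 27 contrasts. Adjusted p is Benjamini-Hochberg over 15161 genes, and SE is the absolute log2 fold change over the square root of F. The library titles give a replicate number and the design text 3 independent experiments, so the number was taken to be the experiment. With group means taken out the mean correlation within an experiment was 0.372, 0.351 and 0.133 over 91 pairs each, and the numbers were taken to pair the libraries. Replicates differed by more than counting error (chi-square per degree of freedom 3.38 to 38.5). Counting intervals are exact at 95% and cover counting error only. The prior count of log2 CPM was 2.

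The members and lists were chosen with earlier results of these data known. By a written rule the 8 members are always named, and of each list up to 4 genes with the lowest adjusted p in wild type and any gene called between genotypes. Of the listed genes 88 of 89 were in the table, the other being not analysed here. Of the loci, 24701 matched the reference by name. The script was checked on simulated counts. Alternatives were RLE factors, library size alone, no filter, no block, DESeq2 1.42.0, fits of 1 treatment, sums with relatives, and fits without 1 experiment or library. Figures used Python 3.11.15 and matplotlib 3.10.9.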

Additional observations from a re-analysis of the deposited data

Results flagged for a closer look

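Responses to Pma that differed from that of wild type by the test of the difference itself (edgeR, adjusted over all genes) were as follows, among the genes named. TSB1 responded more in cbp60a cbp60g sard1, by 1.20 on the log2 scale (adjusted p = 0.0315, TSB1 called in 1 of 6 mutants). That call ended in 12 of 21 alternatives, with library size alone (0.0924), without the block (0.380) and in 10 fits without an experiment or a library, with adjusted p of up to 0.490. TSBL responded less in chp60g sard1, by -1.62 (adjusted p = 0.0146). This call ended without experiment 2 (0.231), without experiment 3 (0.113) and without chp60g sard1 Pma of experiment 3 (0.0745).

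CYP79B3 responded more in chp60g sard1, by 3.14 (adjusted p = 0.00487), and in cbp60a cbp60g sard1, by 3.68 (adjusted p = 0.00365). Without experiment 2 or 3 the adjusted p was 0.0723 and 0.0624 in the first line and 0.0535 and 0.121 in the second. MYB34 responded more by 4.28 in chp60g sard1 (adjusted p = 0.0106) and by 4.23 in cbp60a cbp60g sard1 (adjusted p = 0.0202). It missed the threshold without the experiment as a block (0.102 and 0.121), without experiment 2 (0.0958 and 0.129) and without experiment 3 (0.199 and 0.359). In chp60g sard1 it missed it also without the Pma library of experiment 3 (0.0867). In cbp60a cbp60g sard1 it missed it without wild type mock of experiment 1 (0.0701), wild type Pma of experiment 3 (0.0756), that line's own mock of experiment 3 (0.0540), or its Pma of experiment 3 (2.80, adjusted p = 0.170).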

How the results depend on the processing

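All 49 Pma responses of the 7 tested genes kept their direction and their call in each of 14 or 15 alternatives per response. Pooled over the 49 responses these are 441 checks without 1 library or experiment and 287 with another setting. Many of these checks come from the same fit, so they are not separate fits. Between genotypes few members were called, and the number called moved. With library size alone it went from 1 to 0 in chp60g sard1 in Pma leaves and for the response of the triple mutant, and from 0 to 1 (IGPS, 1.06) in cml46 cml47 in mock leaves, while with mock libraries alone TSA1 was called there (0.65, adjusted p = 0.0452). Library size alone shifts the median of all genes by up to 0.399, RLE factors or DESeq2 by up to 0.086. Without the replicate block it went from 1 to 0 in chp60g sard1, the triple mutant and wrky70 in Pma leaves and for the response of the triple mutant. With DESeq2 it went from 0 to 1 in cbp60a in mock leaves (ASB1, 1.42). Without 1 library or experiment the number was 0 to 2 in cbp60a in mock and in wrky70 in Pma leaves, and 0 to 1 in cml46 cml47 in mock, in chp60g sard1, the triple mutant and sid2 in Pma leaves, and for the responses of the triple mutant, cml46 cml47 and wrky70. Summed with IGPS2, the difference of IGPS in cml46 cml47 mock reversed to -0.0206, IGPS2 being at 45.2 CPM there and 66.6 CPM in wild type. The cause was not tested. Summing with relatives changed no call of TSB1.

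Without the replicate block, genes called in Pma leaves numbered 1171 in place of 1986 in chp60g sard1, 861 in place of 1533 in the triple mutant, 174 in place of 502 in wrky70 and 1127 in place of 2200 in sid2. In cml46 cml47 mock they numbered 315 in place of 795, and 1444 with library size alone or 2157 with mock libraries alone. For the difference of the response they numbered 315 in place of 1032 in chp60g sard1, 65 in place of 589 in the triple mutant and 36 in place of 262 in sid2. PAI1 could not be tested, and depth limits TSB2, ASB2, INS and the PAI genes, at few tags per library in 1 or both treatments.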
